A study of Mus musculus with 3 samples.

Results

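The barcodes described here are called high endothelial venule (HEV) barcodes after the rule that chose them. They were 395 of the 3145 barcodes that all 3 libraries of the series shared and that had at most 20% of their UMIs from mitochondrial genes. Each barcode marks the RNA of 1 droplet and so, in most cases, of 1 cell, and each UMI counts 1 captured molecule. A barcode was a member when its summed UMIs of Ackr1, Selp, Fut7 and Vwf reached 3 and when it held no UMI of Prox1 or Mmrn1, a pair of lymphatic endothelial genes. The members were thus 12.6% of the shared barcodes within the mitochondrial limit, out of 34185 barcodes deposited. The other 2750 shared barcodes were the comparison. Because measured values chose the members, all levels below are descriptions and none was tested. Whether every member was a cell of this vessel was not tested either. Of the members, 113 held no UMI of the HEV marker Glycam1, and 152 held none of the HEV markers Fut7 and Chst4.

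The study deleted Apc, with and without the Wnt-pathway transcription factor Lef1, to ask what Lef1 does in intestinal tumors. The series measured single-cell RNA of small intestinal organoids, epithelial cells grown as small bodies in a gel, from C57BL/6 mice aged 7 to 8 weeks that had been given 2 doses of 2 mg tamoxifen. The organoids labelled WT were taken 21 days after tamoxifen, the LApc organoids (Lgr5-CreERT2;Apc fl/fl, with the Lgr5-EGFP-IRES-CreERT2 allele) after 29 days and the LApcL organoids, which carried Lef1 fl/fl in addition to these alleles, after 21 days. Each genotype was 1 library, cultured to passage 3 and day 6, and the Cre was driven from the stem cell gene Lgr5, so recombination was directed at Lgr5+ cells.

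The 3195 barcode strings shared by the libraries made up 28.0% of the WT, 29.8% of the LApc and 26.5% of the LApcL barcodes. The members went against the labelled tissue. Epcam, the epithelial surface protein, had 0 UMIs in the 395 barcodes of the WT matrix, and the 6 epithelial markers together had 8 UMIs, found in 2.03% of the members. In the LApc and LApcL matrices the same barcodes held more of them, 58 and 57 UMIs, in 6.33% and 5.32% of the members, with Epcam at 9 and 17 UMIs. By contrast 99.2% of the members held a UMI of at least 1 of 5 pan-endothelial markers. Where the shared barcode strings came from was not tested. Over the members, the Spearman correlation of Glycam1 with its WT value was 0.968 in the LApc matrix and 0.969 in the LApcL matrix. These points share a barcode and its depth, so the 3 matrices were not read as 3 genotypes. All levels below come from the WT matrix, and the other matrices are given once, as a repeat reading of the same barcodes.

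High endothelial venules are the postcapillary veins of lymph nodes and gut lymphoid tissue through which lymphocytes leave the blood. Their plump endothelial cells coat sialomucins with fucosylated and sulphated sugars that L-selectin on lymphocytes binds, and they display chemokines such as CCL21 that arrest the rolling cells. Lymphotoxin signalling through NF-kB maintains them in the adult, and the lysophospholipase autotaxin (Enpp2) and the atypical chemokine receptor Ackr1 are part of their known profile.

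The promoters of 3 genes on which the description turns are given first. Glycam1 encodes a secreted sialomucin scaffold for L-selectin ligands. Ubd, which encodes the ubiquitin-like modifier FAT10, was higher in the 99 members with the most Glycam1 than in the 113 without it. Sele, which encodes E-selectin, was higher in those 113, at 413 against 114 CPM. Each promoter is the 250 bases before the transcription start on the gene's own strand, from RefSeq on GRCm38.p6: Glycam1 at chr15:103565082-103565331 on the minus strand, Ubd at chr17:37193642-37193891 on the plus strand and Sele at chr1:164047984-164048233 on the plus strand. Capitals mark a kappaB-type match, GGGNNNNNCC on either strand.
Glycam1: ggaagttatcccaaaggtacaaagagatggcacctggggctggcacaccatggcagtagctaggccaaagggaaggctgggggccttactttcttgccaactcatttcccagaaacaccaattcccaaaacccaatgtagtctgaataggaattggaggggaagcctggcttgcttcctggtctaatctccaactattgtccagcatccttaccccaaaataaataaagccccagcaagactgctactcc
Ubd: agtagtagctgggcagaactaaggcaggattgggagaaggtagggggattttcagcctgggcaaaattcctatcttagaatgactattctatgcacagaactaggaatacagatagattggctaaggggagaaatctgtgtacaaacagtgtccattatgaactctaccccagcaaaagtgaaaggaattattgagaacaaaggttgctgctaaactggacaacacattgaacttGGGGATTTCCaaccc
Sele: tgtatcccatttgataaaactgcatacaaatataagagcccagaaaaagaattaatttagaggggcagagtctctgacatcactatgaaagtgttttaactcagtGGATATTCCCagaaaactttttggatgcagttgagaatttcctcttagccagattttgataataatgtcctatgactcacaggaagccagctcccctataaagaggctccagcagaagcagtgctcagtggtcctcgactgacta
The match lay in 3 of the 9 promoters found for 8 of the 10 genes looked up, those of Ubd, Sele and Selp, and in 45.8% of 32851 mouse promoters of that length. The Glycam1 window held none of these letters in that arrangement.

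The members were deeper than the rest. They had a median of 3447 UMIs per barcode, from 677 to 9889, against 2069.5 for the other shared barcodes, and they held 1451722 UMIs in all. Their median mitochondrial share was 5.02%, against 4.80%. Levels are given as CPM, the UMIs of a gene summed over the barcodes of a set and scaled to 1000000 UMIs, with 95% exact Poisson intervals. Ratios are log2 of CPM + 1 over CPM + 1. The intervals cover counting error only, since no animal or culture was repeated. A count of 3 UMIs corresponded to 2.07 CPM in the members and 0.450 CPM in the other shared barcodes.

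The 4 genes of the rule were met in different combinations. Ackr1 stood at 704 CPM in the members and 23.2 CPM in the other shared barcodes, Selp (P-selectin) at 944 against 44.1 CPM, Fut7 (the fucosyltransferase that finishes the L-selectin ligand) at 521 against 28.9 CPM and Vwf (von Willebrand factor) at 786 against 26.8 CPM, as the rule requires. UMIs of all 4 genes were present in 55 members, of 3 genes in 161, of 2 genes in 142 and of 1 gene in 37. Without Fut7, 81 members would have failed the rule, and without Vwf, 60. Fut7 was found together with Selp in 102 members, with Vwf in 127 and with Ackr1 in 167. Selp and Vwf were found together in 184, Ackr1 and Selp in 183, and Ackr1 and Vwf in 192. The rule sums these genes, so it shapes these counts in part. At the edge of the rule, the 51 members with a sum of exactly 3 UMIs had 8066 CPM of Glycam1 and 90.9 CPM of Chst4. The 73 barcodes with a sum of 2, just outside, had 6310 CPM of Glycam1 and 90.1 CPM of Chst4. A further 40 shared barcodes reached 3 UMIs but held Prox1 or Mmrn1, and these had 11072 CPM of Glycam1.

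Glycam1 (ENSMUSG00000022491, chr15:103562759-103565081, minus strand, GRCm38), which the rule did not use, stood at 21068 CPM in the members (20833 to 21306; 30585 UMIs). It was at 1540 CPM in the other shared barcodes, a log2 ratio of 3.77 (3.74 to 3.81 for the plain ratio). Against shared barcodes chosen by markers of other vessels, it was at 434 CPM in 811 capillary barcodes, 1468 CPM in 858 lymphatic barcodes and 63.6 CPM in 46 arterial barcodes. By summed level the order of the 4 sets was therefore HEV, lymphatic, capillary and arterial, with no overlap of counting intervals. Since 74.7% of the lymphatic and 85.9% of the capillary barcodes held no Glycam1 UMI, their summed levels rest on a minority of barcodes. A Glycam1 UMI was found in 71.4% of members (66.7 to 75.8) and 25.3% of lymphatic barcodes, whose median depth was 3047 UMIs. After each barcode was thinned to 1000 UMIs the shares were 63.6% of 390 members and 15.8% of 828 lymphatic barcodes.

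**Figure D1:**
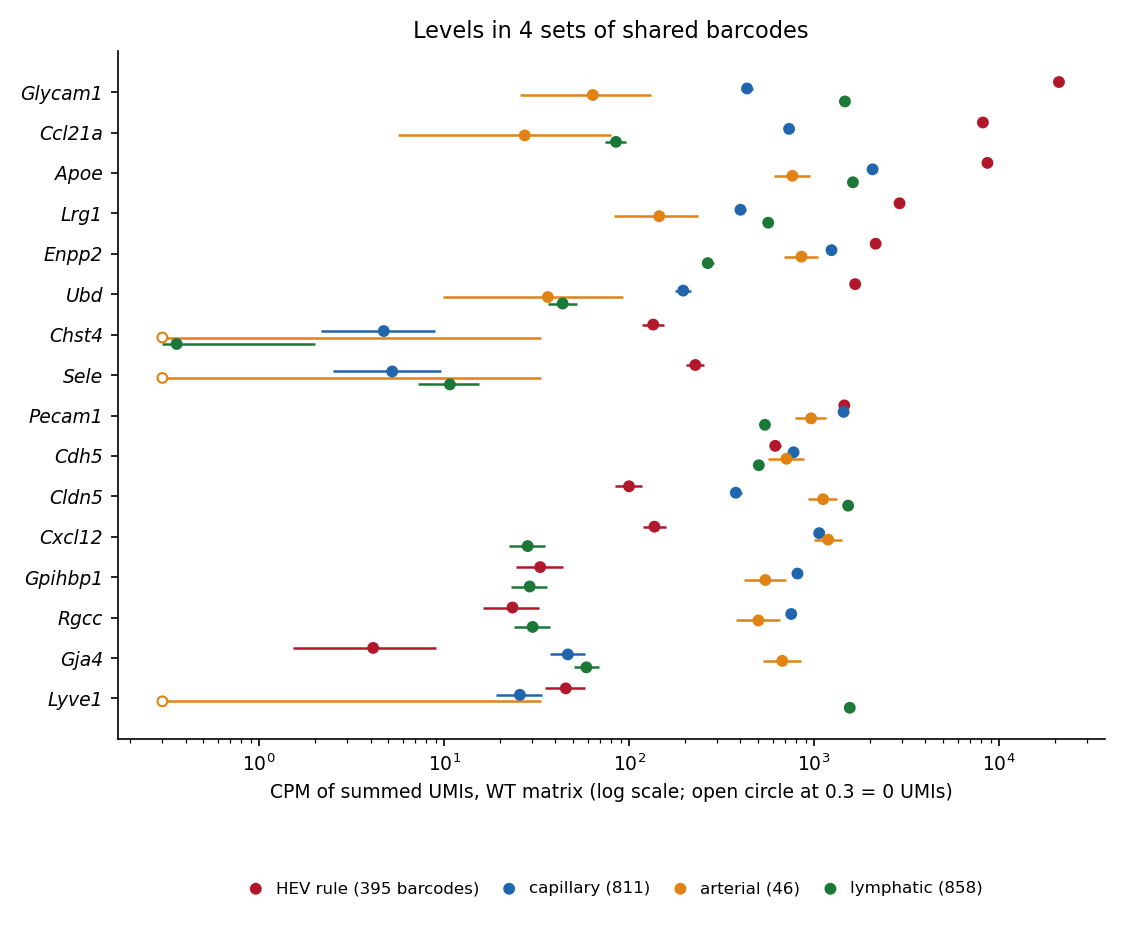
Levels of 16 genes in 4 sets of shared barcodes of the WT matrix, as CPM of summed UMIs on a log axis with 95% exact Poisson intervals. Glycam1 lay at 21068 CPM in the HEV-rule barcodes and at 1468, 434 and 63.6 CPM in the lymphatic, capillary and arterial sets, whereas Pecam1 was nearly the same in the HEV-rule (1456 CPM) and capillary (1444 CPM) sets.

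All 6 markers chosen for this vessel were higher in the members than in the other shared barcodes by over 1 log2 unit, 3 of them genes of the rule. Their summed level was 25524 CPM in the members, against 2474 CPM in the other shared barcodes and 918 to 1768 CPM in the capillary, arterial and lymphatic sets. The 3 markers outside the rule, Glycam1, Chst4 and Enpp2, summed to 23354 CPM in the members and 2378 CPM in the other shared barcodes. These markers were not found in each barcode, and 113 of the 395 members (28.6%) held no Glycam1 UMI.

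Of 3402 genes that reached 50 CPM in the members or in the other shared barcodes, mitochondrial genes and the genes of the rule aside, 138 (4.06%) were higher in the members by over 1 log2 unit and 311 (9.14%) were lower, and the median over all of them was -0.19. Each list below reads against these shares. Scaling by the median of ratios moved that median to -0.083 and the counts to 164 and 268.

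**Figure D2:**
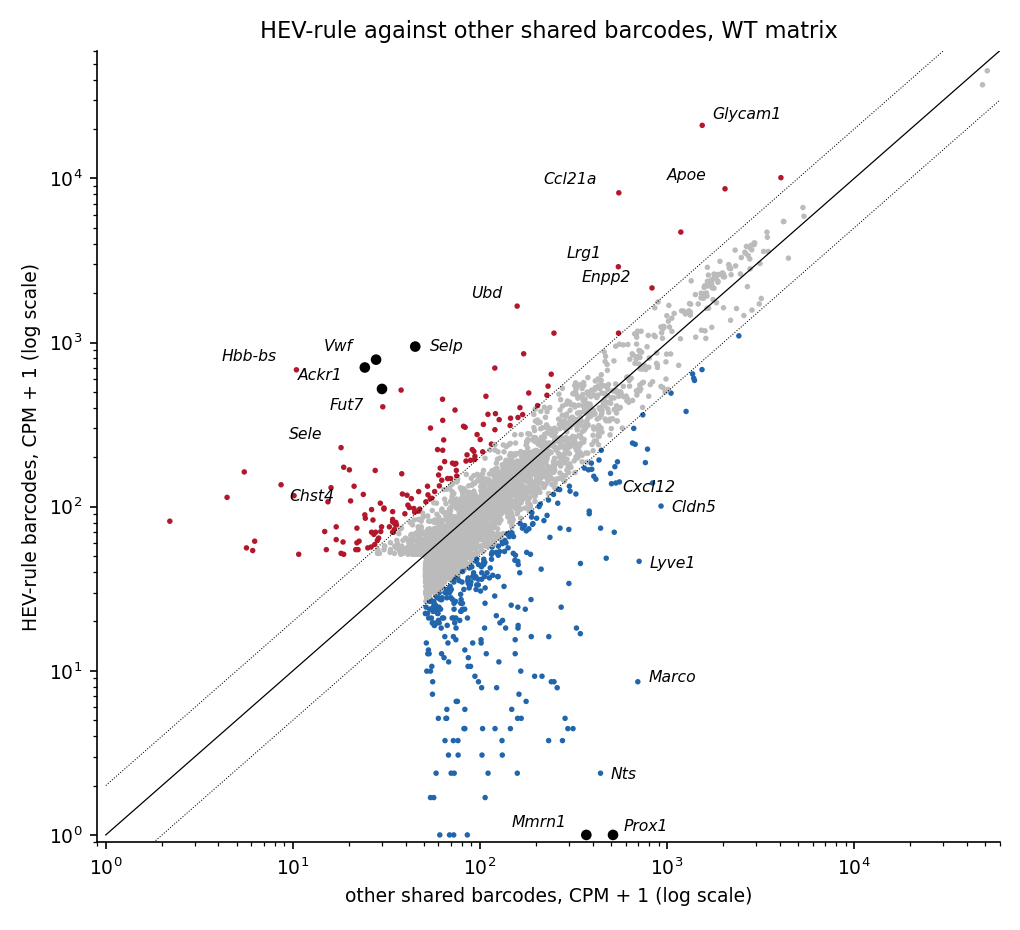
CPM + 1 of each gene at or above 50 CPM in the HEV-rule barcodes (vertical) or the other shared barcodes (horizontal), both on log axes. Dotted lines mark a ratio of 2; red genes were higher (138), blue genes lower (311), and the larger black points are the genes of the rule, with Glycam1 (log2 ratio 3.77) and Ccl21a (3.89) well above the diagonal.

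Among 5 sialomucin scaffolds of L-selectin ligands, 1 was higher, 2 were lower and 2 lay between. Glycam1 was the one that was higher. Cd34, carried by most blood endothelium, was at 548 CPM in the members and 358 CPM in the other shared barcodes. Emcn (endomucin) was at 570 and 357 CPM. Podxl (podocalyxin) was lower, at 50.3 against 185 CPM (log2 ratio -1.86). Madcam1, the scaffold that mucosal venules also present to the integrin alpha4beta7, was lower at 6.89 against 41.1 CPM, and its 10 UMIs in the members came from 2 barcodes. In the capillary barcodes Madcam1 was at 0.524 CPM, below the members. Against that set 2 of the 5 scaffolds were higher in the members and 1 was lower.

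Of the 12 enzymes that build the L-selectin sugar, 2 were higher, none was lower and 10 lay between, with a median of 0.56. Chst4, the HEV sulphotransferase that adds sulphate to N-acetylglucosamine, was at 135 CPM (117 to 155) in the members against 7.65 CPM in the other shared barcodes, 4.72 CPM in capillary and 0.358 CPM in lymphatic barcodes. Its log2 ratio to the other shared barcodes was 3.98. Chst4 UMIs were found in 111 members (28.1%) and in 1 of 858 lymphatic barcodes. Gcnt1, which starts the core-2 branch that carries the ligand, was at 97.1 against 29.7 CPM. Chst2, the second sulphotransferase of this ligand, was at 135 against 69.3 CPM and B3gnt3, which extends core-1 sugars, at 40.6 against 19.9 CPM, both just under 1 log2 unit. Fut4 did not separate the sets, with 15 UMIs and 10.3 CPM in the members and 10.5 CPM in the rest.

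Among chemokines and lipid mediators, 4 of 11 measured genes were higher and 5 were lower. Ccl21a, a ligand of CCR7 on naive lymphocytes, was at 8173 CPM in the members (8027 to 8321) and 551 CPM in the other shared barcodes, a log2 ratio of 3.89. It was at 732 CPM in capillary and 84.9 CPM in lymphatic barcodes, and 261 members held a UMI. Near-identical copies of this gene may share its reads, so the value stands for the copies together. Enpp2 was at 2151 against 830 CPM (log2 ratio 1.37), Cxcl9, an interferon-induced ligand of CXCR3, at 368 against 120 CPM, and Cxcl10, of the same receptor, at 477 against 227 CPM. The lower genes included Cxcl12, at 137 against 504 CPM, and Ccl2, at 3.44 against 119 CPM. No UMI of Ccl19 or Cxcl13 was found in the members.

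Among adhesion genes 2 of 11 were higher, 1 was lower and 8 lay between. Sele was at 228 CPM (204 to 254) in the members, 17.1 CPM in the other shared barcodes and 5.24 CPM in capillary barcodes. Jam2, a junctional partner of lymphocyte integrins, was at 216 against 91.8 CPM, but at 180 CPM in capillary barcodes. Jam3 was lower, at 118 against 325 CPM. Icam1, the ligand of LFA-1, was at 976 against 555 CPM and Vcam1 at 234 against 277 CPM, both within 1 log2 unit.

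Pan-endothelial genes were near the level of the other shared barcodes, while most arterial and capillary genes were lower. Of 12 pan-endothelial genes 11 lay within 1 log2 unit, with Pecam1 at 1456 against 996 CPM and Cdh5 at 617 against 613 CPM. The exception was the tight-junction gene Cldn5, at 99.9 CPM in the members, 928 CPM in the other shared barcodes and 377 CPM in capillary barcodes. Of 11 arterial genes 9 were lower and none was higher, with Gja4 at 4.13 against 65.4 CPM. Of 12 capillary genes 8 were lower and none was higher, with Gpihbp1, which anchors lipoprotein lipase, at 33.1 against 298 CPM and Rgcc at 23.4 against 271 CPM. The other 4 capillary genes lay within 1 log2 unit, among them Plvap at 2577 against 1662 CPM and Cd300lg at 765 against 466 CPM. At least 1 of 5 capillary markers had a UMI in 90.9% of the members, 89.9% of the other shared and 90.7% of the lymphatic barcodes. All 10 lymphatic genes were lower, with Lyve1 at 45.5 against 708 CPM. That direction is partly set by the rule, since barcodes with Prox1 or Mmrn1 could not be members.

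Against the 811 capillary barcodes alone, which were chosen to hold no Prox1 or Mmrn1 UMI, 5.37% of 3258 genes were higher and 7.8% were lower. There Glycam1 had a log2 ratio of 5.60, Chst4 of 4.57, Ccl21a of 3.48 and Sele of 5.20. Enpp2 was at 2151 against 1242 CPM in the capillary barcodes and Cd34 at 548 against 729 CPM, both within 1 log2 unit. Venous genes stood higher in 3 of 5 cases, with a median of 1.56, namely Lrg1 at 2897 against 400 CPM, Nr2f2, the transcription factor of venous identity, at 147 against 49.3 CPM, and Bgn at 84.0 against 16.2 CPM. Vcam1 was at 234 CPM in the members against 38.3 CPM in the capillary barcodes. Against all other shared barcodes 1 of the 5 venous genes was higher (median -0.14), with Nr2f2 at 147 against 227 CPM and Bgn at 84.0 against 103 CPM. Against the lymphatic barcodes 1 was higher and 2 were lower (median -0.56). Against the 858 lymphatic barcodes, where 8.49% of 3615 genes were higher and 17% were lower, Enpp2 was at 2151 against 266 CPM and Cd34 at 548 against 24.0 CPM. Choosing the capillary and lymphatic sets by their own markers fixes the direction of those markers.

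The 15 genes with the highest ratio to the other shared barcodes included, besides Chst4, Ccl21a, Glycam1, Sele and Ubd, the genes Serpina1e, Tagln, Nxph1, F5, Oit1 and Hamp, and 4 haemoglobin genes. Ubd was at 1667 against 157 CPM and was found in 271 members. Tagln, an actin-binding protein, was at 405 against 29.2 CPM and F5, coagulation factor V, at 55.1 against 4.65 CPM. Serpina1e, a serine protease inhibitor with near-identical paralogs, was at 512.5 against 36.9 CPM. Hamp rested on 9 members. The haemoglobin genes rested on 2 members, which held 1222 and 281 of the 1505 haemoglobin UMIs, 22.1% and 12.7% of their own UMIs. With every barcode that held a Hbb-bs UMI left out, 2 members and 14 other shared barcodes, the log2 ratio of Hba-a1 was -0.54.

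The genes with the lowest ratio included Nts, Tbx1, Marco, Sema3d, Klrb1f, Fxyd6, Mir99ahg, Cp and Gdf10. Barcodes with a UMI of Prox1 or Mmrn1 were kept out by the rule, though 8.10% of the members held a Lyve1 UMI. Each of the genes just named was higher in the lymphatic than in the capillary barcodes, from 134 CPM for Mir99ahg to 1521 CPM for Marco in the lymphatic set. Tbx1, Klrb1f and Mir99ahg had 0 UMIs in the members. Outside these ranks, and chosen after their values were seen, Apoe was at 8648 against 2039 CPM and was found in 391 members, and Mfge8, a secreted protein that bridges dying cells to phagocytes, was at 1141 against 248 CPM.

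The lymphotoxin and NF-kB list did not separate the sets. All 9 genes lay within 1 log2 unit (median 0.27), with Ltbr, the lymphotoxin beta receptor, at 44.8 against 37.0 CPM, Relb at 111 against 112 CPM and Nfkbia at 1978 against 1559 CPM. In antigen presentation 3 of 10 genes were higher, all of the class II pathway: Cd74 at 541 against 230 CPM, H2-Eb1 at 60.6 against 21.6 CPM and H2-Aa at 76.5 against 34.8 CPM. Class I stayed level, with B2m at 3029 against 3137 CPM. In the capillary barcodes Cd74 was at 215 CPM, H2-Eb1 at 33.5 CPM and H2-Aa at 53.5 CPM. Only Cd74 was higher in the members than in that set by over 1 log2 unit. In the interferon list 3 of 9 genes were lower, among them Isg15 at 118 against 246 CPM and Irf7 at 51.7 against 121 CPM. Immediate early and heat shock genes, which tissue dissociation is known to induce, were all lower in the members, 3 of 9 by over 1 log2 unit, with Fos at 1856 against 3187 CPM and Hspa1a at 8.95 against 53.4 CPM. Of 8 genes of Weibel-Palade bodies, the storage granules that hold P-selectin and von Willebrand factor, 1 was higher and 2 were lower. Rab27a, which docks these granules, was at 15.8 against 5.40 CPM, and Plat at 14.5 against 100 CPM.

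Markers of other cells were few. Platelets also carry Selp and Vwf, and the 5 platelet markers summed to 59 UMIs in the members, 33 of Itga2b and 25 of Pf4, with Gp9 and Gp1bb at 0. They were found in 12.4% of the members, 16.1% of the other shared barcodes, 39.7% of lymphatic and 2.22% of capillary barcodes, at summed levels of 40.6, 187, 373 and 9.96 CPM. Leukocyte markers summed to 24 UMIs, 21 of them Coro1a, with Laptm5 and Lyz2 at 0, and were found in 5.57% of the members and 2.65% of the shallower other shared barcodes. Coro1a was higher in the members, at 14.5 against 6.15 CPM. The 7 stromal markers summed to 4 UMIs, with Col1a1 among those at 0. Scrublet's highest doublet scores took in 5.06% of the members and 6.95% of the other shared barcodes. The part of these cells in the levels was not tested.

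The members differed widely among themselves. Glycam1 ranged from 0 to 206253 CPM per barcode with a median of 2761 CPM and an upper quartile of 19745 CPM. Ccl21a ranged from 0 to 40440 CPM with a median of 4033 CPM, and Enpp2 from 0 to 10484 CPM with a median of 1940 CPM. Apoe was spread less, with a median of 7416 CPM and only 4 members at 0.

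**Figure D3:**
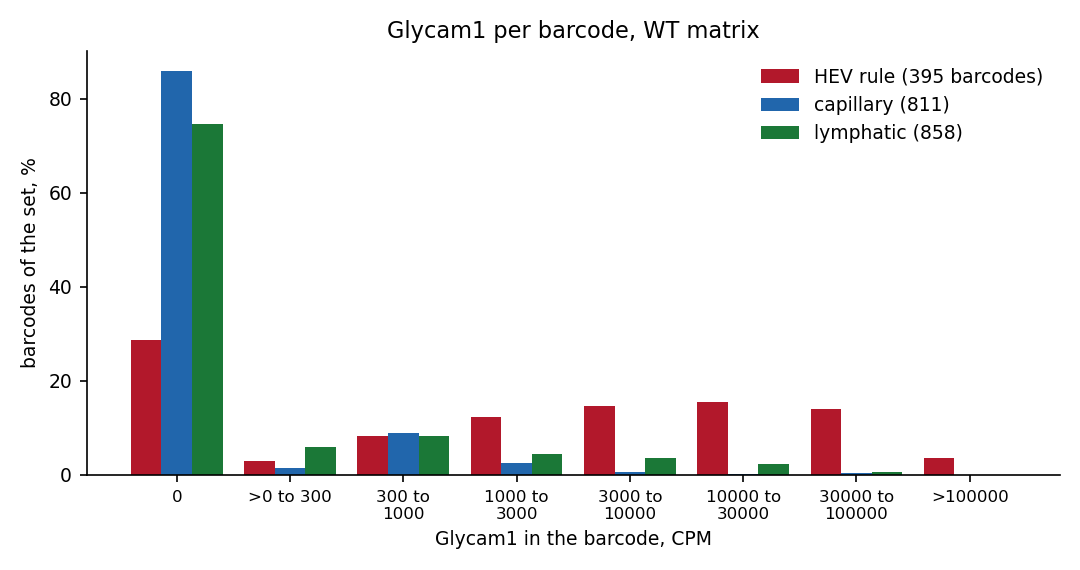
Share of barcodes (vertical, percent of the set) by Glycam1 level in the barcode (horizontal, CPM) for the HEV-rule, capillary and lymphatic sets of the WT matrix. Of the HEV-rule barcodes 28.6% held no Glycam1 UMI and 3.54% lay above 100000 CPM, while the other sets were mostly at 0.

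Fut7 or Chst4, the enzymes, were detected in 243 members (61.5%) and not in 152 (38.5%). The first set was deeper, with a median of 4076 against 2688 UMIs. Members without either enzyme had to reach the rule through Ackr1, Selp and Vwf, so those levels are fixed in part by the split. Of 3155 genes, 2.92% were higher with the enzymes and 5.99% were lower. Glycam1 was at 28290 CPM with them and 4251 CPM without, Ccl21a at 10283 and 3260 CPM, and Gcnt1 at 118 and 48.2 CPM. Sele was lower with the enzymes, at 126 and 465 CPM, as were Mgp, a matrix Gla protein, at 14.8 and 339 CPM and Bgn, the proteoglycan biglycan, at 13.8 and 248 CPM. Pecam1 was at 1452 and 1465 CPM. With every barcode thinned to 1000 UMIs, 152 members showed an enzyme and 238 did not, and the log2 ratio was 1.72 for Glycam1, -1.48 for Sele, -5.06 for Mgp and -2.39 for Bgn.

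A split on Glycam1, added after its spread had been seen, gave a second view. The 99 barcodes with the highest values, at least 19760 CPM each, were set against the 113 barcodes without a Glycam1 UMI, and of 3124 genes 5.09% were higher and 11.4% were lower. Chst4 was at 260 CPM in the Glycam1-highest and 24.9 CPM in the Glycam1-zero members, Fut7 at 720 and 214 CPM, Ubd at 2589 and 336 CPM, Ccl21a at 13497 and 2039 CPM and Timp4, an inhibitor of matrix metalloproteinases, at 548 and 18.7 CPM. Among genes higher in the Glycam1-zero members were Selp at 348 and 1778 CPM, Sele at 114 and 413 CPM, Cxcl12 at 27.9 and 311 CPM, Mgp at 8.60 and 413 CPM and Fbln2, the matrix protein fibulin-2, at 4.30 and 230 CPM. Ackr1, at 679 and 814 CPM, Apoe, at 6967 and 7749 CPM, and Pecam1, at 1373 and 1545 CPM, had log2 ratios of -0.26, -0.15 and -0.17. Of the 11 adhesion genes 2 were past 1 log2 unit, both lower in the Glycam1-highest members, and 9 lay between. Of the 5 venous genes 4 were lower in the Glycam1-highest members and 1 was higher (median -1.05), with Nr2f2 at 101 and 208 CPM and Lrg1 at 3909 and 1859 CPM, and of 8 measured capillary genes 5 were lower and none was higher (median -1.14). Because the rule genes had to sum to 3 UMIs, members low in Fut7 had to hold more of the other rule genes, so the opposite levels of Fut7 and Selp are fixed in part by the rule. The Glycam1-highest members were deeper (median 4657 against 2694 UMIs). In members thinned to 1000 UMIs and split again, into 100 and 142 barcodes, the log2 ratio was 2.75 for Chst4, 2.64 for Ccl21a, 3.61 for Timp4, -2.30 for Selp and -5.09 for Mgp.

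**Figure D4:**
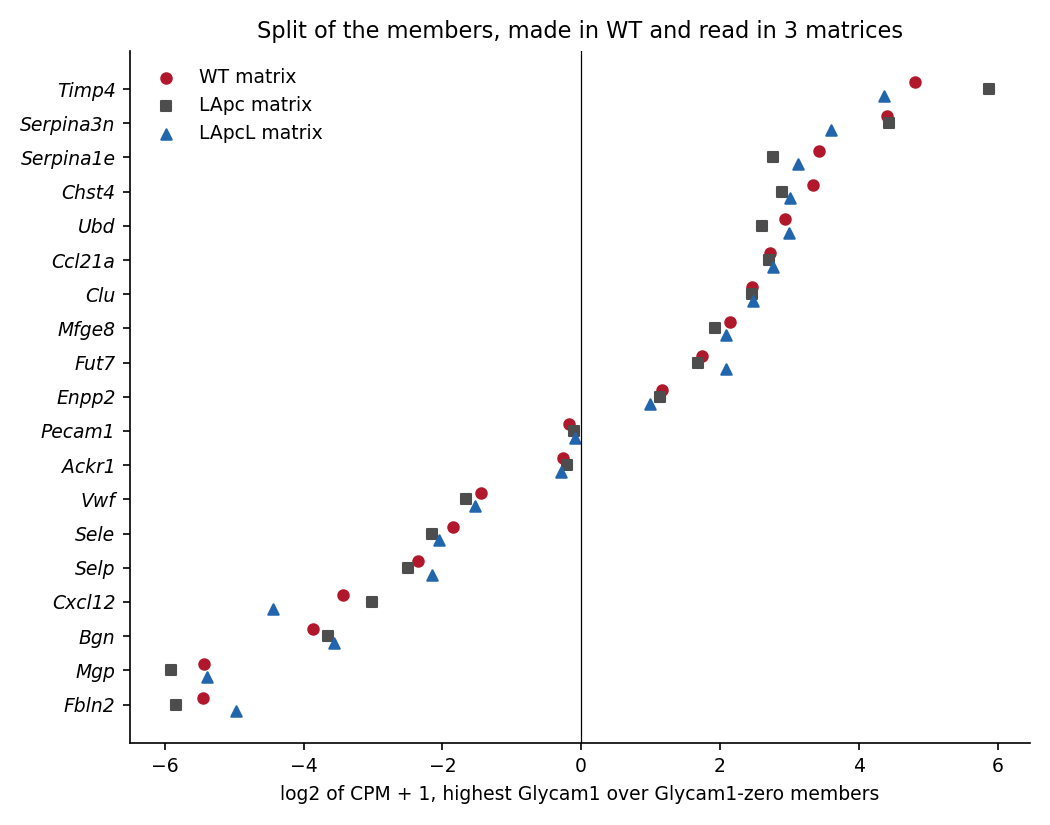
Log2 ratio of CPM + 1 (horizontal) between the 99 members with the highest Glycam1 and the 113 members without a Glycam1 UMI, for 19 genes (vertical), with the split made in the WT matrix and the UMIs read in the WT, LApc and LApcL matrices. All 3 readings lie on the same side of 0 for each gene drawn, from Timp4 (4.80 in WT) to Fbln2 (-5.45 in WT).

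The other matrices gave a repeat reading of the same barcodes. Per member the LApc matrix held 0.678 and the LApcL matrix 0.734 times the WT UMIs (medians). Glycam1 was at 21068 CPM in WT, 21325 CPM in LApc and 20988 CPM in LApcL, Ccl21a at 8173, 8027 and 7894 CPM, and Chst4 at 135, 123 and 146 CPM. The 3 values of Glycam1 and of Chst4 lay within overlapping counting intervals. Applied to these shallower counts, the rule found 306 of the 395 members (77.5%) in LApc and 320 (81.0%) in LApcL, and of the 2750 other shared barcodes it took in 1.13% and 1.49%. The Spearman correlation with WT over the members was lower for sparse genes, 0.670 and 0.698 for Ackr1, and 0.969 and 0.975 for Ccl21a.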

How the data were processed

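Small intestinal organoid libraries were made on the 10x 3' platform. The authors deposited UMI counts per gene and barcode without normalisation. Per the file headers the deposited counts came from Cell Ranger 6.0.1, whereas the submitters' processing notes name version 2.1.1, with the builds mm10 and GRCm38. Rows with the same symbol were summed (32285 rows, 32245 symbols).

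The members and the gene lists were chosen with earlier results of these data known. Capillary barcodes held at least 3 UMIs of Rgcc, Cd36, Gpihbp1 and Cd300lg and were not arterial. Arterial barcodes held at least 3 of Gja5, Gja4, Bmx, Gkn3 and Hey1. Neither set held a UMI of Prox1 or Mmrn1. Lymphatic barcodes held at least 2 of Prox1 and Mmrn1. All these sets were under 3 UMIs of Ackr1, Selp, Fut7 and Vwf. Named genes were the list members and the 15 highest and 10 lowest ratios among genes at or above 50 CPM. Not every gene so ranked is reported here. List genes counted as measured with at least 10 UMIs summed over both sets of a comparison. Of 169 list genes 168 were found. With 1 library per group no test was run and no p-value computed. Ratio intervals are exact conditional binomial; shares are Clopper-Pearson, both at 95%. The ratio and interval steps were tested on simulated Poisson counts with 200 genes changed 4-fold. The simulation held no variation between barcodes, so it says nothing about that spread. Doublets were scored with Scrublet in scanpy 1.11.5, whose threshold marked 4 of 11411 barcodes and so did not work, and none were removed in the main values. Python 3.11.15, numpy 2.4.6 and scipy 1.17.1 were used, and Cd99 was not found among the symbols.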

Additional observations from a re-analysis of the deposited data

Results flagged for a closer look

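Outside the shared barcodes, 5 of 3072 WT barcodes within the mitochondrial limit met the HEV rule (0.163%), against 0 of 3616 in LApc and 0 of 4725 in LApcL. They were shallow, with 548 to 655 UMIs each, 2 held Glycam1, with 102 UMIs in the higher, and 1 held Pecam1. They were listed because they lie in barcodes that the comparisons did not use, and their source was not tested.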

How the results depend on the processing

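The number of members ran from 306, with 5 UMIs required, to 468, with 2. Lowering the minimum level from 50 to 10 CPM gave 285 higher and 1058 lower genes, and no minimum gave 535 and 2543, so that 21.2% and 17.4% of the genes past the fold were higher, against 30.7% at 50 CPM; these sets hold more genes at few UMIs. Over 13 alternatives the log2 ratio to the other shared barcodes ran from 3.45 to 3.88 for Glycam1, 3.04 to 4.47 for Chst4, 3.33 to 4.20 for Ccl21a, 3.13 to 4.05 for Sele and 1.22 to 1.48 for Enpp2. Without the barcodes holding Hbb-bs, an alternative chosen after the data were seen, Hba-a1 and Hba-a2 both turned to -0.54. No paired analysis was possible because each group was 1 library and no result came from a test. The spread between mice or cultures is unknown.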
